A study of Homo sapiens with 6 samples.

Results

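S100 proteins, annexins and a set of genes used as markers of the mesenchymal-like state of glioma were followed in U251 cells after knockdown of TEAD3. The 34 genes come from the 60612 rows of the deposited gene count table, and all 34 were found: 15 S100 genes, 12 annexin genes and 7 mesenchymal-like markers (CD44, CHI3L1, LGALS1, LGALS3, SPP1, EMP1 and EMP3). They were chosen by name, with no threshold on a measured value, but with earlier results of these data known. U251 cells, an established line of human glioma origin, were grown in DMEM with serum. There were 3 libraries labelled TEAD3 knockdown and 3 labelled normal control, each from polyadenylated RNA. The labels describe a transient transfection, mention a plasmid vector as well as an siRNA directed at TEAD3, and say neither what the control cells received nor when the sequenced cells were harvested. Nothing in the labels says that replicates were separate cultures, so the p-values rest on how far these libraries vary, and that variation may be only technical. In RNA from whole cultures, fewer cells with a transcript and less of it per cell cannot be told apart.

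S100 proteins are small calcium-binding proteins that act mostly as dimers, inside the cell on targets such as annexins and myosin and, when released, on cell surface receptors. Annexins bind phospholipid membranes in the presence of calcium and take part in vesicle traffic, membrane repair and, for annexin A1, the damping of inflammation. Both families meet in the complex of S100A10 with annexin A2, which links membranes to actin and binds plasminogen at the cell surface. In glioma, high levels of several of these genes, together with the hyaluronan receptor CD44, galectins and osteopontin, mark the mesenchymal-like state, for which TAZ (the product of WWTR1) acting with TEAD factors has been described as a driver.

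None of the 30 members that could be tested was called higher or lower after the knockdown. A gene was called when its adjusted p was under 0.05 in edgeR's quasi-likelihood test, with Benjamini-Hochberg adjustment over all 17723 genes that passed the filter on low counts. By this rule 0.655% of all tested genes were called, 0.451% as higher and 0.203% as lower in the knockdown. Before adjustment p was under 0.05 for 2 members that were higher, S100A13 and ANXA9, and for 1 that was lower, ANXA6, where the shares over all tested genes were 8.15% and 7.43%. Of the 27 members to which DESeq2 gave an adjusted p, it called 1, S100A13, as higher and none as lower, against 3.13% and 2.31% of the genes it tested. The libraries of the groups did not overlap for 4 members that were higher in the knockdown (S100A13, S100A14, ANXA3 and ANXA9) and for 3 that were lower (ANXA5, ANXA6 and ANXA7), where 11% and 10.6% of all tested genes did not overlap in these directions. The member counts are therefore near the background.

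The knockdown itself was visible in the counts: TEAD3 was at 4.7, 8.35 and 6.08 CPM in knockdown replicates 1 to 3, against 14.9, 20.3 and 21 CPM in control replicates 1 to 3 (log2 fold change -1.55, SE 0.218, edgeR adjusted p = 0.0114). The call was lost when knockdown replicate 1, knockdown replicate 3 or control replicate 3 was left out (edgeR adjusted p of 0.0532, 0.0938 and 0.0541). CPM stands for counts per 1000000 counts, with library sizes scaled by TMM. Total counts lay between 63145768 and 64808615 in knockdown libraries and between 58344026 and 63685272 in controls, so that 3 counts correspond to 0.0463 to 0.0514 CPM, a floor that covers counting error only. Knockdown replicate 1 was the highest of the 6 libraries for 12 of the 30 tested members and the lowest for none of them. The same count was not made over all tested genes, so whether this is particular to the members is not known. The non-polyadenylated RNA RN7SL1 had 60.8, 14.4 and 79.8 CPM in the knockdown libraries against 14.7, 34.5 and 17.6 CPM in the controls, and its part in the results was not tested. Among glial markers VIM, NES and SOX2 were abundant, the last at 125 ± 10.1 CPM in knockdown libraries and 150.3 ± 12.2 CPM in controls. The astrocyte marker GFAP was at 0.572 ± 0.212 CPM in knockdown libraries and 1.46 ± 0.298 CPM in controls (log2 fold change -1.34, edgeR adjusted p = 0.143), S100B was at 0.197 ± 0.241 CPM in knockdown libraries and 0.374 ± 0.31 CPM in controls, and the water channel gene AQP4 did not pass the filter. Exons of GFAP overlap genes on the opposite strand. These libraries thus held little transcript of the classical astrocyte markers. The summed level of the 6 glial markers, most of it VIM, was 3752 to 4232 CPM in knockdown libraries and 4657 to 5142 CPM in controls, and its part in the results was not tested.

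Most members are either abundant in U251 or close to absent. Of the 34, 16 had a mean level over all libraries of at least 100 CPM, 5 lay between 10 and 100 CPM, 4 between 1 and 10 CPM and 9 under 1 CPM. Together the 34 genes held 1.25%, 1.12% and 1.12% of all counts in knockdown replicates 1 to 3 and 1.12%, 1.06% and 1.11% in control replicates 1 to 3, so the groups overlapped. The 4 members that were not tested were S100A7, S100P, ANXA10 and ANXA13. S100P, first known from placenta, had no count in any of the 6 libraries. The other 3 were at no more than 0.433 CPM in any library.

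**Figure D1:**
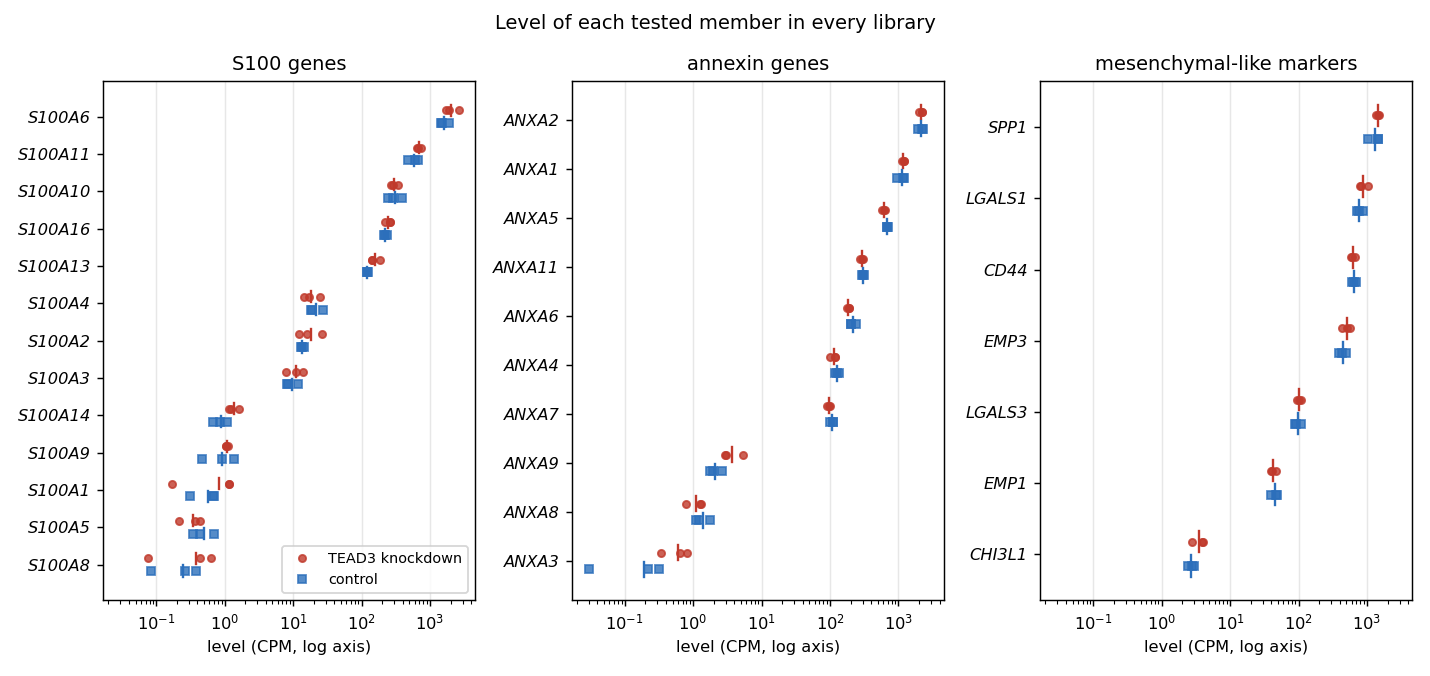
Level of each of the 30 tested members in CPM on a log axis, in panels for S100 genes, annexin genes and mesenchymal-like markers. Circles are the 3 knockdown libraries and squares the 3 control libraries, short vertical lines are group means, and a value of 0 is drawn at 0.03. The groups lie on each other for most members, and levels within each family span several orders of magnitude.

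S100A6 dominated the S100 family. This gene (GRCh38, chr1:153534599-153536244, minus strand), which encodes calcyclin, was at 2614, 1696 and 1872 CPM in knockdown replicates 1 to 3, against 1494, 1914 and 1439 CPM in control replicates 1 to 3. Knockdown replicate 1 was the highest library, while control replicate 2 lay above knockdown replicates 2 and 3. The means were 2060.4 ± 487 CPM in knockdown libraries and 1616 ± 260.2 CPM in controls (SD, n = 3 each; log2 fold change 0.35, SE 0.163, edgeR adjusted p = 0.333), a fold of 1.28, with a 95% interval from 0.994 to 1.64, which includes 1. Per kilobase of transcript, the scale on which levels of different genes can be set side by side, S100A6 was at 3062 ± 724 CPM per kb in knockdown libraries and 2401 ± 387 CPM per kb in controls, and it made up 61.6% of the summed S100 level per kb in the knockdown and 59% in controls. S100A11 came next with 1146 ± 71.8 CPM per kb in knockdown libraries and 978 ± 160.5 CPM per kb in controls.

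S100A11, whose product binds annexin A1, was at 729, 665 and 648 CPM in knockdown replicates 1 to 3, against 478, 666 and 599 CPM in control replicates 1 to 3. Control replicate 1 was the lowest library and the groups overlapped (log2 fold change 0.23, SE 0.124, edgeR adjusted p = 0.411). S100A10, the annexin A2 partner, is an S100 protein that no longer binds calcium. Its level was 335, 268 and 288 CPM in knockdown replicates 1 to 3, against 241, 394 and 283 CPM in control replicates 1 to 3. Control replicates 1 and 2 were the lowest and the highest of the 6 libraries, so the spread within controls was wider than the distance between groups (log2 fold change -0.04, SE 0.163, edgeR adjusted p = 0.945). S100A16 was at 258, 259.8 and 222 CPM in knockdown replicates 1 to 3, against 209.6, 237 and 221 CPM in control replicates 1 to 3, again with overlap (log2 fold change 0.15, SE 0.101, edgeR adjusted p = 0.528). Per kilobase, S100A10, S100A16 and S100A13 followed at 247 ± 28.8, 215 ± 18.5 and 229 ± 38 CPM per kb in the knockdown. These levels did not differ beyond their spread. In controls the same genes were at 255 ± 65.8, 194 ± 12.2 and 176 ± 5.96 CPM per kb, where the ranges of S100A16 and S100A13 barely met.

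S100A13 had the smallest p among all members. Its product takes part in the release of growth factors that lack a signal peptide. The gene (chr1:153618787-153631360, minus strand) was at 188, 142 and 142 CPM in knockdown replicates 1 to 3, against 119, 126 and 118 CPM in control replicates 1 to 3, so all knockdown libraries lay above all controls, with replicate 1 well above the other two. Its mean was 157 ± 26.1 CPM in knockdown libraries and 121 ± 4.09 CPM in controls (SD, n = 3 each; log2 fold change 0.38, SE 0.12, edgeR adjusted p = 0.167), and the fold was 1.3, with a 95% interval from 1.08 to 1.56. The DESeq2 adjusted p was 0.0384. Without knockdown replicate 1 the log2 fold change was 0.24 (edgeR adjusted p = 0.51), and with the correction for transcript length and GC content described below it was 0.13 (edgeR adjusted p = 0.353). Exons of S100A13 overlap those of S100A1 on the opposite strand by 235 bases and those of a processed transcript on the same strand, so its counts are uncertain.

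The remaining S100 genes were less abundant. S100A4, a gene linked to cell motility through nonmuscle myosin, was at 18.6 ± 5.14 CPM in knockdown libraries and 21.4 ± 4.88 CPM in controls (log2 fold change -0.20, edgeR adjusted p = 0.699). S100A2, better known from epithelia, was at 18.2 ± 7.31 CPM in knockdown libraries and 13.6 ± 0.644 CPM in controls, with 26.4 CPM in knockdown replicate 1 and no more than 15.8 CPM in any other library (log2 fold change 0.42, edgeR adjusted p = 0.417). S100A3 was at 11 ± 3 CPM in knockdown libraries and 9.51 ± 2.08 CPM in controls (log2 fold change 0.20, edgeR adjusted p = 0.725). S100A14, an epithelial S100 gene, was at 1.64, 1.17 and 1.26 CPM in knockdown replicates 1 to 3, against 0.869, 0.687 and 1.08 CPM in control replicates 1 to 3, close to 1 CPM but without overlap (log2 fold change 0.62, edgeR adjusted p = 0.407). S100A8 and S100A9, whose products form calprotectin in myeloid cells, were at 0.378 ± 0.278 CPM in knockdown libraries and 0.243 ± 0.15 CPM in controls and at 1.07 ± 0.0435 CPM in knockdown libraries and 0.923 ± 0.46 CPM in controls. S100A1 and S100A5 were also under 1 CPM on average. Of the 13 tested S100 genes, 10 had a fold change above 0 and 3 below 0, where 49.8% of all tested genes were above 0 and 50.2% below. The median log2 fold change of the S100 genes was 0.23, beside -0.0012 over all tested genes. It was 0.15 without knockdown replicate 1 and 0.40 without control replicate 2. S100 genes held 0.414%, 0.305% and 0.324% of all counts in knockdown replicates 1 to 3, against 0.266%, 0.33% and 0.272% in control replicates 1 to 3, so the groups overlapped.

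All S100 members but S100P lie on chromosome 1 (GRCh38), 12 of them within a block of 274 kb that runs from S100A9 to S100A1. Some abundant genes in it stand beside near-silent ones, while S100A4, S100A3 and S100A2 follow each other at group means of 9.51 to 21.4 CPM. S100A6, the most abundant, is the direct neighbour of S100A5, which was at 0.344 ± 0.115 CPM in knockdown libraries and 0.496 ± 0.186 CPM in controls. S100A14, at 1.35 ± 0.248 CPM in knockdown libraries and 0.879 ± 0.198 CPM in controls, stands between S100A16 and S100A13, which were over 100 CPM. S100A9, S100A8 and S100A7 at the other end of the block averaged no more than 1.07 CPM in either group. S100A10 and S100A11 lie 1.37 and 1.33 Mb away, on the side of S100A9. Fold changes of the tested genes of the block ranged from -0.52 for S100A5 to 0.63 for S100A8 on the log2 scale, both at under 1 CPM.

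**Figure D2:**
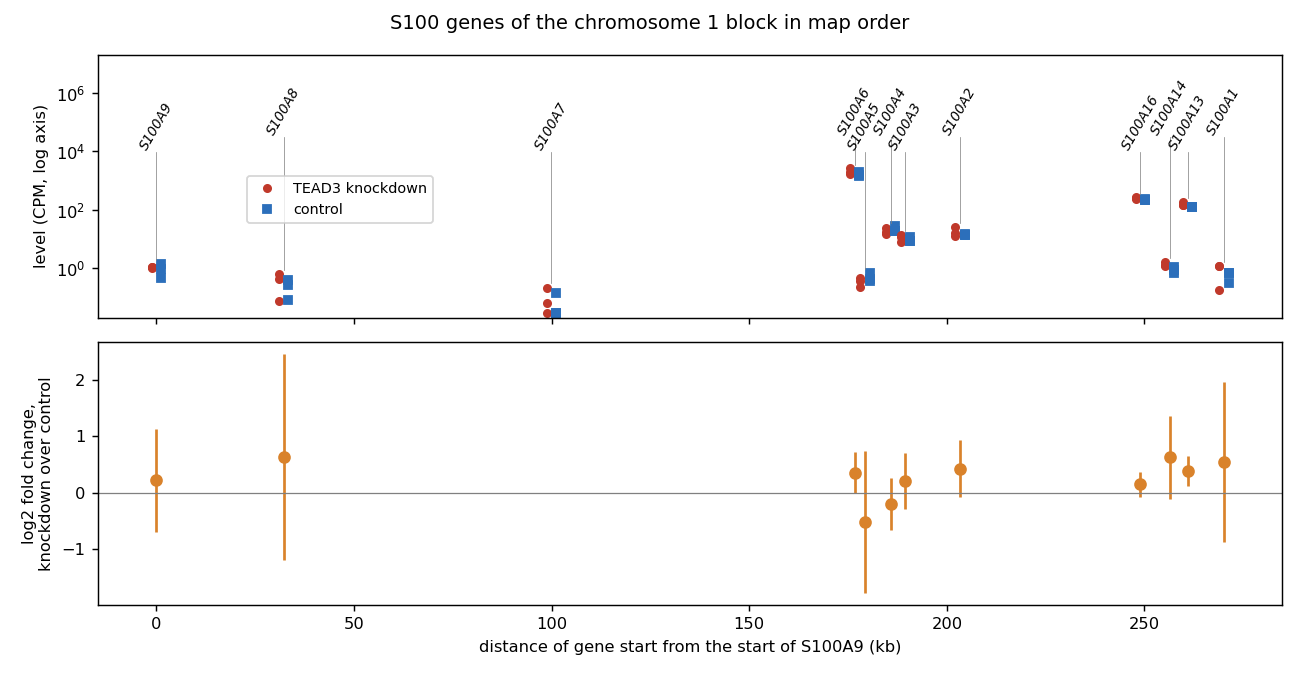
The 12 S100 genes of the chromosome 1 block, by distance of the gene's lower coordinate from that of S100A9 in kb. The upper panel gives CPM on a log axis in knockdown libraries (circles) and controls (squares), with 0 drawn at 0.03, and the lower panel gives the log2 fold change with its 95% interval for the 11 tested genes. Levels change by orders of magnitude between some neighbours, while most intervals of the fold change include 0.

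Among the annexins, ANXA2, ANXA1 and ANXA5 were the most abundant. ANXA2 (chr15:60347134-60402883, minus strand) was at 2201, 2194 and 1963 CPM in knockdown replicates 1 to 3, against 2319, 1922 and 2206 CPM in control replicates 1 to 3. The groups overlapped (log2 fold change -0.02, SE 0.103, edgeR adjusted p = 0.961). The fold was 0.986, with a 95% interval from 0.843 to 1.15. Its processed pseudogene ANXA2P2 held between 134 and 152 CPM in knockdown libraries and between 127 and 158 CPM in controls, and with the counts of the pseudogenes added the log2 fold change of ANXA2 was -0.02 (edgeR adjusted p = 0.956). ANXA1, which encodes a ligand of formyl peptide receptors, was at 1209, 1117 and 1186 CPM in knockdown replicates 1 to 3, against 1209, 958 and 1178 CPM in control replicates 1 to 3. Control replicate 2 was the lowest library, and the other 5 lay close together (log2 fold change 0.07, SE 0.108, edgeR adjusted p = 0.818). Per kilobase of transcript ANXA2 was at 1264 ± 80.9 CPM per kb in knockdown libraries and 1282 ± 122 CPM per kb in controls and ANXA1 at 530.1 ± 21.6 CPM per kb in knockdown libraries and 505 ± 61.8 CPM per kb in controls.

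ANXA5, ANXA6 and ANXA7 were lower in every knockdown library than in every control, though none was called. ANXA5, the phosphatidylserine binder used to detect dying cells, was at 639, 624 and 582 CPM in knockdown replicates 1 to 3, against 681, 672 and 710.3 CPM in control replicates 1 to 3 (log2 fold change -0.16, SE 0.0899, edgeR adjusted p = 0.426). ANXA6 (chr5:151100712-151157882, minus strand), an annexin of the plasma membrane and endosomes, was at 187, 188 and 177 CPM in knockdown replicates 1 to 3, against 205, 241 and 206 CPM in control replicates 1 to 3, with control replicate 2 the highest. Its mean was 184 ± 6.27 CPM in knockdown libraries and 217 ± 20.4 CPM in controls (SD, n = 3 each; log2 fold change -0.24, SE 0.0991, edgeR adjusted p = 0.278), and the fold was 0.847, with a 95% interval from 0.729 to 0.985. ANXA7, which binds the calcium sensor sorcin, was at 95.4, 100.3 and 91 CPM in knockdown replicates 1 to 3, against 112, 101 and 112 CPM in control replicates 1 to 3, where knockdown replicate 2 and control replicate 2 almost touched (log2 fold change -0.18, SE 0.0951, edgeR adjusted p = 0.401). After the length and GC correction the log2 fold changes were -0.20 for ANXA5, -0.22 for ANXA6 and -0.19 for ANXA7 (edgeR adjusted p of 0.0958, 0.0713 and 0.128).

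ANXA11, which tethers RNA granules to lysosomes, was at 293, 302 and 277 CPM in knockdown replicates 1 to 3, against 294, 313 and 306 CPM in control replicates 1 to 3, with overlap (log2 fold change -0.07, SE 0.0894, edgeR adjusted p = 0.792). ANXA4, an annexin of epithelia and other tissues, was at 113 ± 10.5 CPM in knockdown libraries and 127 ± 8.14 CPM in controls (log2 fold change -0.16, edgeR adjusted p = 0.491). Per kilobase ANXA4, ANXA7 and ANXA11 lay between 39 and 41.7 CPM per kb in the knockdown and between 43.7 and 45.4 CPM per kb in controls, and these levels did not differ beyond their spread. ANXA9 (chr1:150982017-150995634, plus strand), an atypical annexin, was at 5.34, 3 and 2.88 CPM in knockdown replicates 1 to 3, against 1.94, 2.63 and 1.75 CPM in control replicates 1 to 3. All knockdown libraries were above all controls and replicate 1 was the highest (log2 fold change 0.83, SE 0.295, edgeR adjusted p = 0.213). Its fold was 1.78, with a 95% interval from 1.13 to 2.79. Without knockdown replicate 1 its log2 fold change was 0.49 (edgeR adjusted p = 0.62).

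ANXA3 was at 0.803, 0.344 and 0.643 CPM in knockdown replicates 1 to 3, against 0.32, 0 and 0.216 CPM in control replicates 1 to 3 (log2 fold change 1.71, edgeR adjusted p = 0.397). It was under 1 CPM in every library and had no count in control replicate 2, so its fold change rests on few counts. ANXA8 was at 1.11 ± 0.287 CPM in knockdown libraries and 1.38 ± 0.356 CPM in controls (log2 fold change -0.31, edgeR adjusted p = 0.73). It has a near-identical copy, ANXA8L1, and the split of reads between both is uncertain. With the copy added the log2 fold change was -0.38 (edgeR adjusted p = 0.572). Of the 10 tested annexins 3 had a fold change above 0 and 7 below 0, with a median log2 fold change of -0.11, which was -0.06 without knockdown replicate 3 and also without control replicate 3. Annexin genes held 0.469%, 0.462% and 0.442% of all counts in knockdown replicates 1 to 3, against 0.51%, 0.421% and 0.489% in control replicates 1 to 3, again with overlap.

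The mesenchymal-like markers held 4 genes of more than 400 CPM in each group mean, and none was called. SPP1 (chr4:87975650-87983426, plus strand), which encodes the secreted protein osteopontin, was at 1375, 1495 and 1454 CPM in knockdown replicates 1 to 3, against 1446, 1026 and 1431 CPM in control replicates 1 to 3. Control replicate 2 was the lowest library and the other 5 lay between 1375 and 1495 CPM, so the groups overlapped (log2 fold change 0.15, SE 0.13, edgeR adjusted p = 0.645). LGALS1, the galectin-1 gene, was at 1039, 802 and 805 CPM in knockdown replicates 1 to 3, against 714, 861 and 754 CPM in control replicates 1 to 3. Knockdown replicate 1 was the highest library and the remaining ones overlapped (log2 fold change 0.18, SE 0.124, edgeR adjusted p = 0.518). CD44, the hyaluronan receptor gene, was at 600.3, 661 and 588 CPM in knockdown replicates 1 to 3, against 650.1, 605 and 690.2 CPM in control replicates 1 to 3, with overlap (log2 fold change -0.07, SE 0.0968, edgeR adjusted p = 0.781). Its fold was 0.951, with a 95% interval from 0.82 to 1.1. EMP3, a membrane protein gene of the PMP22 family, was at 570.0, 436 and 503 CPM in knockdown replicates 1 to 3, against 389.6, 498 and 433 CPM in control replicates 1 to 3, and control replicate 2 lay among the knockdown libraries (log2 fold change 0.19, SE 0.125, edgeR adjusted p = 0.501).

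LGALS3 (galectin-3) was at 101 ± 6.02 CPM in knockdown libraries and 97.2 ± 11.2 CPM in controls (log2 fold change 0.06, edgeR adjusted p = 0.844), and EMP1, related to EMP3, at 42.3 ± 3.54 CPM in knockdown libraries and 44.9 ± 4.37 CPM in controls (log2 fold change -0.09, edgeR adjusted p = 0.786). CHI3L1, a secreted chitinase-like glycoprotein often used as a mesenchymal marker of glioma, was at only 3.53 ± 0.684 CPM in knockdown libraries and 2.73 ± 0.248 CPM in controls (log2 fold change 0.37, edgeR adjusted p = 0.475). Of these 7 genes 5 had a fold change above 0, and their median log2 fold change was 0.15. It was 0.053 without knockdown replicate 1 and -0.023 with the length and GC correction, with 3 of 7 above 0. The 7 genes held 0.369%, 0.351% and 0.353% of all counts in knockdown replicates 1 to 3, against 0.344%, 0.306% and 0.348% in control replicates 1 to 3. The knockdown libraries were thus all above the controls, the closest pair by a narrow margin. Exons of CD44, EMP3, ANXA7 and S100A6 overlap a gene on the opposite strand by 84, 217, 105 and 23 bases, and whether counting used strand is not given in the sources used here.

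Intervals of the fold show how far these data reach. Of the 21 members with a mean of at least 10 CPM, all had a 95% interval within a 2-fold change in either direction, and for 16 it lay within a 1.5-fold change. Intervals were wider for members of low level: that of S100A8, which averaged under 1 CPM in both groups, ran from 0.434 to 5.51.

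**Figure D3:**
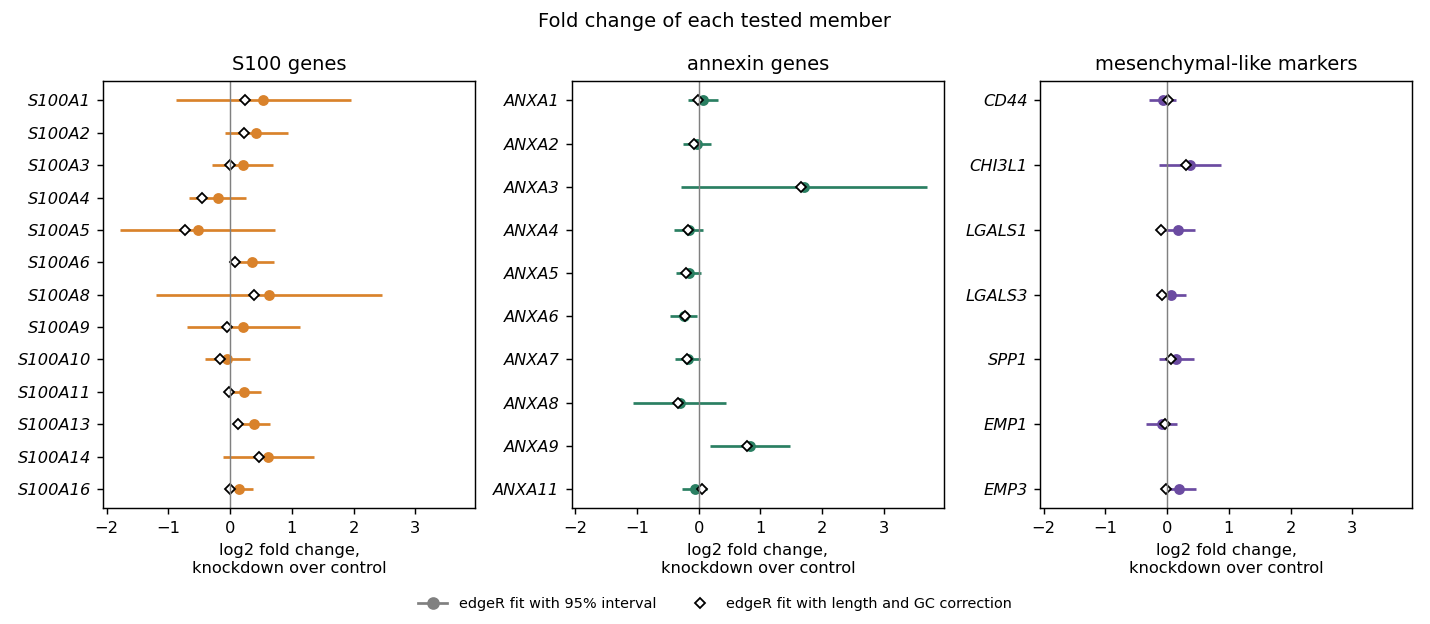
Log2 fold change (knockdown over control) of the 30 tested members, with filled circles for the edgeR fit, lines for its 95% interval and open diamonds for the fit with length and GC correction. Diamonds of the S100 genes lie left of their circles, while those of ANXA4 to ANXA7 stay near them.

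S100 transcripts are short, and in these libraries short transcripts had higher fold changes in general. For the 671 tested protein-coding genes with a transcript under 1000 nucleotides the median log2 fold change was 0.24, and 79.4% of them were above 0. From 1000 to 2000 nucleotides the median was 0.08, from 2000 to 4000 it was -0.01 and over 4000 it was -0.06. Of the 13 tested S100 genes 10 have a transcript under 1000 nucleotides, and so do LGALS1 and EMP3, while no annexin does. The 12 short members had a median of 0.22, beside 0.24 for all short genes. The 18 longer members had a median of -0.03.

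With a per-library correction for transcript length and GC content the S100 median was -0.0039 and 6 of 13 S100 genes were above 0. The S100A6 log2 fold change was then 0.08 (edgeR adjusted p = 0.686), that of S100A11 -0.02 (0.931), that of LGALS1 -0.11 (0.391) and that of EMP3 -0.02 (0.904). S100A4 was at -0.46 on the log2 scale (edgeR adjusted p = 0.124). The annexin median was -0.12, and again no member was called, where 1.4% of all tested genes were called as higher and 1.62% as lower in that fit. Whether the dependence on length arose in the cells or in the libraries was not tested.

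**Figure D4:**
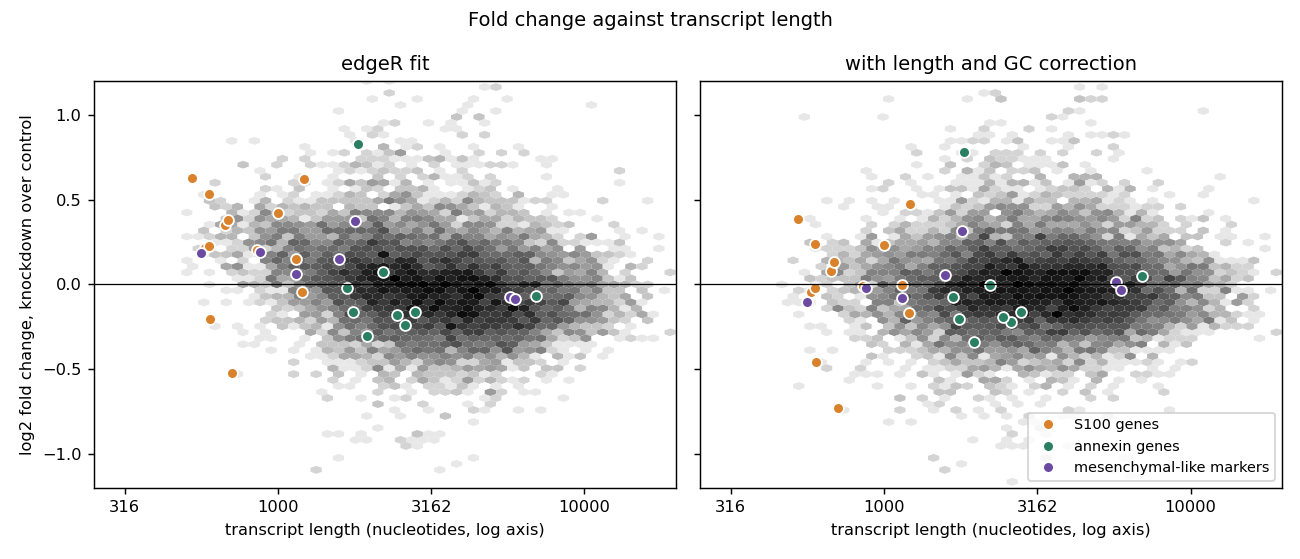
Log2 fold change against transcript length in nucleotides (log axis), without correction (left) and with the length and GC correction (right). Grey hexagons are all tested protein-coding genes, darker where there are more, coloured points are the members, and genes beyond 1.2 in either direction, ANXA3 among them, are not drawn. On the left the S100 genes sit on the raised short end of the grey cloud, which lies around 0 on the right.

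Promoter letters were searched because the product of the targeted gene, TEAD3, binds DNA. TEAD factors recognise GGAATG, and AP-1, which often binds near them, recognises TGANTCA. Both strands were searched in windows of 300 bases, 250 before to 50 after the gene start (RefSeq, build GRCh38.p14), which were found for 31 of the 34 members, 43 windows in all. GGAATG was in 3 windows of 2 members, S100A5 and S100A16, which is 6.98% of member windows and 14% of the 35116 windows of all genes. TGANTCA was in 5 windows of 5 members, S100A2, S100A3, S100A5, ANXA2 and EMP1, which is 11.6% of member windows and 7.71% of all windows. The matches did not overlap each other. The 250 bases before the start are shown for those with a match and a level of at least 10 CPM, so that letters can be seen beside the values above, with each match in capitals (GGAATG in S100A16, TGANTCA in the others).
S100A16, chr1:153613138-153613387, minus strand: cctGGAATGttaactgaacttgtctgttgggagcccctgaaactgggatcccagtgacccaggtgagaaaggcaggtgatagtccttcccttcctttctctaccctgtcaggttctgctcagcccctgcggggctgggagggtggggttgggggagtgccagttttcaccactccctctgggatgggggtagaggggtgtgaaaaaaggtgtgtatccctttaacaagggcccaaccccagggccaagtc
S100A2, chr1:153565845-153566094, minus strand: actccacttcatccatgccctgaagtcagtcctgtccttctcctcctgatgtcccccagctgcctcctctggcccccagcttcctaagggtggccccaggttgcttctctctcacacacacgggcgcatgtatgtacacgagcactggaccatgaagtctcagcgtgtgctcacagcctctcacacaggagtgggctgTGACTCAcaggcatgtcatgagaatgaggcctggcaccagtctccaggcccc
S100A3, chr1:153549259-153549508, minus strand: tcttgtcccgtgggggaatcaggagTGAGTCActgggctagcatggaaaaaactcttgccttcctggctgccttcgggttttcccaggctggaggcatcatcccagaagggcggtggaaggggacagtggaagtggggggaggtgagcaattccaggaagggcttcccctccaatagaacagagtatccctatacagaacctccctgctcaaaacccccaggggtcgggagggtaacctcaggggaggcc
ANXA2, chr15:60397987-60398236, minus strand: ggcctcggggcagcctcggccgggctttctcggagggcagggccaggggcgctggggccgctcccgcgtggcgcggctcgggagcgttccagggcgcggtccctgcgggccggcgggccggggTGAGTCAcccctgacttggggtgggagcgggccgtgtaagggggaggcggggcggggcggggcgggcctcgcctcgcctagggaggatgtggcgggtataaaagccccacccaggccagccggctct
EMP1, chr12:13196476-13196725, plus strand: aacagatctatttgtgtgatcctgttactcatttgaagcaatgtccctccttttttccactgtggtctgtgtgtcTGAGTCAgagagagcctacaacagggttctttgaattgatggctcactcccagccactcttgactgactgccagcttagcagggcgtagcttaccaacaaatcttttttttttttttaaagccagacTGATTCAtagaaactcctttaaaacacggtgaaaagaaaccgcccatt
None of these 5 genes was called, with log2 fold changes of 0.15 for S100A16, 0.42 for S100A2, 0.20 for S100A3, -0.02 for ANXA2 and -0.09 for EMP1. A match to these letters is a description of the window and not a binding site.

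Receptors and partners of S100 proteins and annexins gave no call in edgeR's test without correction. Of 20 tested of 22 listed, 7 were above 0 and 13 below, with a median log2 fold change of -0.0079. Before adjustment p was under 0.05 for 3 that were higher and 1 that was lower, against 8.15% and 7.43% of all tested genes. DESeq2 called 1 of the list higher and none lower, against 3.13% and 2.31% of the genes it tested. With the length and GC correction 1 was called higher and none lower, against 1.4% and 1.62% of all tested genes. FPR1 and AHNAK, given next, were not among these calls. FPR1, a formyl peptide receptor bound by annexin A1, was at 3.01 ± 0.48 CPM in knockdown libraries and 1.99 ± 0.0941 CPM in controls (log2 fold change 0.60, edgeR adjusted p = 0.256). AHNAK, a scaffold of the S100A10 and annexin A2 complex, was at 119.7 ± 7.56 CPM in knockdown libraries and 141 ± 6.71 CPM in controls (log2 fold change -0.23, edgeR adjusted p = 0.27). Of the other S100 and annexin genes, 3 of 7 were tested, S100Z (log2 fold change 0.35, edgeR adjusted p = 0.474), S100B (log2 fold change -0.93, edgeR adjusted p = 0.758) and ANXA8L1 (log2 fold change -0.50, edgeR adjusted p = 0.65), and the remaining 4 had no count in any library.

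Ligands, receptors and relatives of the mesenchymal-like markers showed no gene called by edgeR without correction among 23 tested of 24. Before adjustment p was under 0.05 for 2 that were higher and 4 that were lower, against 8.15% and 7.43% of all tested genes. MSN, which encodes moesin and ties CD44 to actin, was at 569, 779 and 671 CPM in knockdown replicates 1 to 3, against 885, 989 and 1021 CPM in control replicates 1 to 3 (log2 fold change -0.52, SE 0.122, edgeR adjusted p = 0.0884). PMP22, the relative of EMP1 and EMP3, was at 63, 84.7 and 61.9 CPM in knockdown replicates 1 to 3, against 97.9, 93.2 and 110.3 CPM in control replicates 1 to 3 (log2 fold change -0.52, SE 0.134, edgeR adjusted p = 0.109). ITGA5, an integrin subunit, was at 235, 265 and 298 CPM in knockdown replicates 1 to 3, against 147, 225 and 169 CPM in control replicates 1 to 3 (log2 fold change 0.56, SE 0.152, edgeR adjusted p = 0.126). In each of these the libraries did not overlap. After the length and GC correction MSN (-0.42, edgeR adjusted p of 0.0419), PMP22 (-0.55, 0.0403) and ITGA5 (0.63, 0.00633) were called, and so were RDX, the radixin gene (-0.47, 0.013), and the integrin gene ITGA4 (0.57, 0.0427), which makes 2 higher and 3 lower. DESeq2 called 2 higher (ITGA5 and ITGA4) and 4 lower (MSN, PMP22, RDX and HAS3, a hyaluronan synthase gene). Over all tested genes the corrected fit called 1.4% higher and 1.62% lower, and DESeq2 3.13% and 2.31% of those it tested.

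In a wider list of genes of the mesenchymal-like programme, edgeR's test called 4 of 36 higher and none lower, with 23 above 0 and 13 below. Of all tested genes 0.451% were called higher and 0.203% lower. The list was chosen with earlier results of these data known, so its counts are no test of the list. DESeq2 called 9 higher and 1 lower (TUBA1C, a tubulin gene, adjusted p = 0.0263), against 3.13% and 2.31% of the genes it tested. After correction for length and GC content, 7 were called higher and 3 lower (CLIC4, TAGLN2 and GSN), against 1.4% and 1.62% of all tested genes. The list median was 0.06. Before adjustment 9 of its genes were higher and 3 lower with p under 0.05, where the shares over all tested genes were 8.15% and 7.43%. TCIM, a regulator of Wnt signalling, was at 28.8, 18.9 and 30.6 CPM in knockdown replicates 1 to 3, against 9.69, 10.4 and 8.84 CPM in control replicates 1 to 3 (log2 fold change 1.44, SE 0.181, edgeR adjusted p = 0.00646). MGP, an inhibitor of calcification in the matrix, was at 699.9, 585 and 602 CPM in knockdown replicates 1 to 3, against 385, 373 and 425 CPM in control replicates 1 to 3 (log2 fold change 0.67, SE 0.104, edgeR adjusted p = 0.0177). SOD2, the mitochondrial superoxide dismutase gene, was at 121, 92.4 and 107 CPM in knockdown replicates 1 to 3, against 72.3, 56.6 and 63.2 CPM in control replicates 1 to 3 (log2 fold change 0.74, SE 0.128, edgeR adjusted p = 0.0297). MT1X, a metallothionein gene with close paralogs, was at 53.4, 57.1 and 56.1 CPM in knockdown replicates 1 to 3, against 26.5, 35 and 36.9 CPM in control replicates 1 to 3 (log2 fold change 0.76, SE 0.131, edgeR adjusted p = 0.0296). All 4 had knockdown libraries above every control.

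These calls rested on single libraries to different degrees. TCIM lost its call when knockdown replicate 3 was left out (1.31, edgeR adjusted p = 0.0516). For MGP the edgeR adjusted p was 0.0866 when knockdown replicate 1 was left out, 0.11 when knockdown replicate 3 was, 0.069 and 0.0636 when control replicates 1 and 3 were, and 0.0531 with the replicate number as a block. For SOD2 it was 0.153, 0.188 and 0.152 when knockdown replicate 1, knockdown replicate 3 or control replicate 3 was left out, and MT1X was called only without control replicate 2 among the 6 leave-one-out fits (0.0286). After the length and GC correction MT1X was at 0.49 (edgeR adjusted p = 0.0814). Exons of MGP and SOD2 overlap a gene on the opposite strand, and those of MT1X one on the same strand. Those of SOD2 also overlap a second entry of the same name on the same strand, by 845 bases. The counts of these genes are therefore uncertain.

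**Figure D5:**
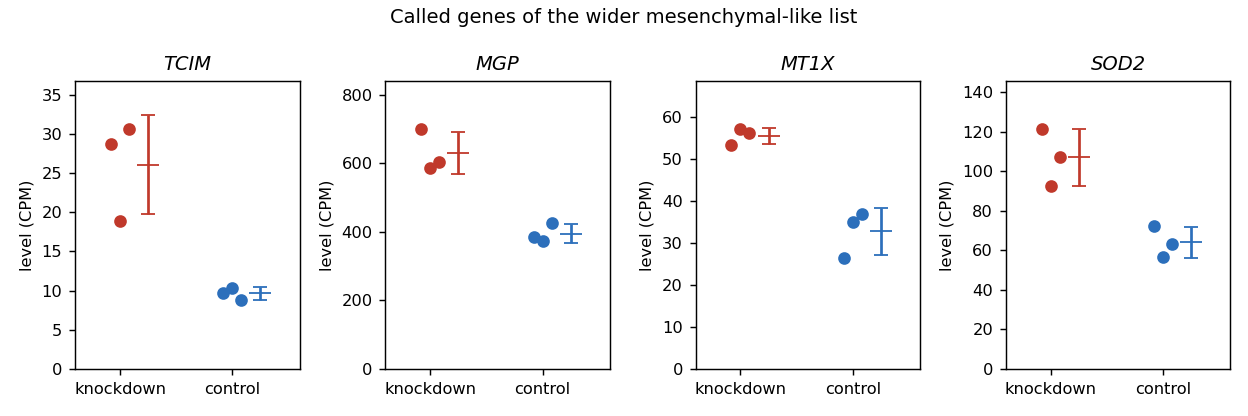
Level in CPM of the 4 called genes of the wider mesenchymal-like list in each knockdown library (left in each panel) and each control library (right), with group mean and SD beside the points. All 3 knockdown libraries lie above the 3 controls in each panel, from 18.9 to 30.6 CPM against 8.84 to 10.4 CPM for TCIM.

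Regulators described for the mesenchymal state in glioma were not called by edgeR without correction. Of 11 tested, 5 were above 0 and 6 below. An unadjusted p under 0.05 was found for 1 that was higher and 2 that were lower, against 8.15% and 7.43% of all tested genes. WWTR1, which encodes TAZ, was at 62.2, 62.5 and 54.3 CPM in knockdown replicates 1 to 3, against 91.1, 71.2 and 88.9 CPM in control replicates 1 to 3, without overlap (log2 fold change -0.49, SE 0.119, edgeR adjusted p = 0.0995). It was called by DESeq2 (adjusted p = 0.00651), without control replicate 2 (-0.60, edgeR adjusted p = 0.0234) and with the length and GC correction (-0.47, 0.0161). Its exons overlap an antisense gene. The transcription factor genes CEBPB and STAT3 were at 38.1 ± 5.73 CPM in knockdown libraries and 28 ± 3.56 CPM in controls (log2 fold change 0.44, edgeR adjusted p = 0.166) and at 275 ± 16 CPM in knockdown libraries and 324 ± 18.4 CPM in controls (log2 fold change -0.24, edgeR adjusted p = 0.266). DESeq2 called CEBPB as higher (log2 fold change 0.45, adjusted p = 0.0429) and did not call STAT3 (adjusted p = 0.166). It thus called 1 of the 11 higher and 1 lower, against 3.13% and 2.31% of the genes it tested. The fit with length and GC correction called none higher and 1 lower, against 1.4% and 1.62% of all tested genes.

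Markers of other cell types were mostly near 0. KRT10 and COL1A1, given below, were above that. The myeloid marker CD68 was at 131 ± 11.1 CPM in knockdown libraries and 137 ± 15.8 CPM in controls. The fibroblast marker COL1A2 was at 972 ± 20.9 CPM in knockdown libraries and 1211 ± 167 CPM in controls. Of 10 myeloid markers 3 passed the filter, their sum was 125 to 146 CPM in knockdown libraries and 125 to 156 CPM in controls, nearly all of it CD68, and AIF1, TYROBP and CD163 had no count. Of 7 keratinocyte markers only KRT10 passed, with LORICRIN and SPRR1B at 0. The keratinocyte sum was 9.91 to 16.6 CPM in knockdown libraries and 7.12 to 9.61 CPM in controls, nearly all of it KRT10. This gene was at 13.4 ± 3.44 CPM in knockdown libraries and 7.79 ± 1.57 CPM in controls (log2 fold change 0.78, edgeR adjusted p = 0.127, DESeq2 adjusted p = 0.0126). The part of this sum in the values of S100A2 and S100A14 was not tested. Of 4 endothelial markers 3 passed, and the list summed to 1.97 to 3.51 CPM in knockdown libraries and to 2.39 to 3.01 CPM in controls. Of 5 fibroblast markers 2 passed, and the list summed to 964 to 1006 CPM in knockdown libraries and to 1113 to 1414 CPM in controls, most of it COL1A2, with DCN near 0 and LUM at 0. The fibroblast sum was lower in every knockdown library, and its part in the results was not tested. COL1A1, the other fibroblast marker that passed, went the other way, at 13 ± 1.06 CPM in knockdown libraries and 9.22 ± 1.97 CPM in controls (log2 fold change 0.50, edgeR adjusted p = 0.209).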

How the data were processed

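The table the authors deposited gives raw read counts for each gene in 6 libraries of polyadenylated RNA. Build GRCh38 and the tools HISAT2 2.0.4, cutadapt 1.9, edgeR, DESeq2 and StringTie 1.3.4d are named, without roles, in the submitters' processing notes. The library kit marks strand, per the labels' protocols. The counting tool, its annotation, its strand setting and its handling of multi-mapped reads are not given in the sources at hand. Symbols came from the identifier table, coordinates, exon overlaps and lengths from GENCODE release 29 (the longest principal transcript, or the longest where none is marked).

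Testing used R 4.3.3 and edgeR 4.0.16 (glmQLFit and glmQLFTest, two-sided, TMM, filterByExpr with its minimum of 10 counts, group as the only term, Benjamini-Hochberg adjustment over 17723 genes). The steps were tested on simulated data. Alternatives were DESeq2 1.42.0, other scalings and filters, the replicate number as a block, each library left out, robust dispersions and a loess correction (span 0.3, fitted on 11512 genes) for length and GC content. Same-numbered libraries did not deviate together (correlations of 0.0056, -0.017 and 0.0083, beside -0.025 to 0.019 for differently numbered ones). With 3 libraries per group this cannot decide whether they were prepared as pairs, which the labels do not say. Every pair of libraries differed by more than sampling noise (chi-square divided by its degrees of freedom was 21.3 to 87.4).

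Members and lists were chosen with earlier results of these data known. Values in every library are given for members with an unadjusted p under 0.05 or among the 4 most abundant of their family. Other named genes are TEAD3, WWTR1 and, of each further list, the called genes or else the 3 with the smallest p. One gene that this rule names is not reported here. Further values per library (S100A14, ANXA3 and ANXA7, for their lack of overlap) and genes named beyond this were chosen after their values were seen.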

Additional observations from a re-analysis of the deposited data

How the results depend on the processing

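No member was called under any alternative other than DESeq2, which called 1. The count over all genes was 116, of which 80 were higher in the knockdown. It was 31 without a filter, 825 by DESeq2, 535 with the length and GC correction (248 of them higher), 197 with robust dispersions, and between 20 (without knockdown replicate 3) and 589 (without control replicate 2) with a library left out. With the replicate block it was 63, and the call of MGP was the only one among the genes named that was lost. The member median was -0.015 with the length and GC correction and -0.010 with the block added to it. In the same fits the S100 median was -0.0039 and -0.0027, and that of the mesenchymal-like markers -0.023 and -0.024. Without a filter the annexin median was -0.045. Leaving out a library gave member medians of 0.051 (without knockdown replicate 1) to 0.19 and mesenchymal-like medians of 0.053 (without the same library) to 0.16. TEAD3 was not called without a filter (-1.56, edgeR adjusted p = 0.0639), and its range with a library left out was -1.80 to -1.37, not called without knockdown replicates 1 and 3 and control replicate 3.

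Of 445 recomputed member fold changes 26, of 13 members, changed sign, all of them uncalled before and after. With the length and GC correction, then with the block added, they were -0.0099 and -0.026 for S100A3, -0.021 and -0.015 for S100A11, -0.0039 and -0.0062 for S100A16, -0.0032 and -0.0024 for ANXA1, 0.047 and 0.046 for ANXA11, 0.013 and 0.012 for CD44, -0.11 and -0.11 for LGALS1, -0.082 and -0.082 for LGALS3, and -0.023 and -0.024 for EMP3. S100A9 was at -0.043 with the correction alone and S100A1 at -0.0027 with the block added. With a library left out S100A9 ranged from -0.10 (without control replicate 3) to 0.64, S100A10 from -0.19 to 0.18 (above 0 without knockdown replicate 2 or control replicate 2), ANXA1 from -0.030 (without control replicate 2) to 0.13 and ANXA2 from -0.10 to 0.038 (above 0 without knockdown replicate 3 or control replicate 1). The causes were not tested, except that the correction was built to remove the trend with length and GC content. At this depth levels near or under 1 CPM rest on few counts, which limits S100A1, S100A5, S100A8, S100A9, S100A14, ANXA3 and ANXA8.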
